A study of Homo sapiens with 16 samples.

Results

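RUNX1, RUNX2 and RUNX3 encode the DNA-binding subunits of the core binding factor, and CBFB encodes its shared subunit, which does not bind DNA itself. The regions considered were those of the deposited lists of lost and gained H3K27ac that touched the gene body of 1 of these 4 genes or lay within 200 kb upstream or downstream of its annotated 5′ end. They numbered 14 of the 7130 listed regions, 10 of the 3507 lost and 4 of the 3623 gained, and the 4 genes were drawn from the 20033 protein-coding genes of GENCODE. H3K27ac, the acetylation of lysine 27 of histone H3 that marks active enhancers and promoters, had been measured by ChIP-seq in LX-2 cells, a single long-established line of human hepatic stellate cells in a myofibroblast-like state. Control cells received the DMSO vehicle and treated cells 50 µM OSMI-1, an inhibitor of the O-GlcNAc transferase OGT, for 24 h, and each arm had 4 H3K27ac libraries. The inhibitor is called OGTi here. The other 8 libraries of the series were of input DNA, which served as the control in the authors' peak calling, and of column purified chromatin, and no value of theirs was compared here. The lists give only the chromosome, start and end of each region, so that no H3K27ac level, fold change, replicate value or read depth can be given, nothing was tested, and a site that is not listed may carry acetylation that did not change enough to be listed. For the same reason the identity of the cells could not be checked against marker levels.

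RUNX proteins bind the sequence TGTGGT through their Runt domain, and CBFB strengthens that binding. RUNX2 is best known as the master regulator of osteoblast differentiation and is also used by mesenchymal cells, RUNX1 is known for blood formation, and RUNX3 for T lymphocytes and sensory neurons. Each RUNX gene has a distal promoter, P1, and a proximal promoter, P2, whose transcripts differ in the first amino acids of the protein. CBFB has 1 promoter. Transcripts named MANE Select are the reference transcript that the annotation chooses for each gene.

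The changes at the RUNX genes were split by gene. RUNX2 had 7 lost regions and 0 gained regions, all 7 in the gene body as annotated. RUNX1 had 4 gained regions in the gene body and 1 lost region far upstream. RUNX3 and CBFB had 1 lost region each, both outside the gene, and 0 gained regions. No region touched an exon of the MANE Select transcript of any of the 4 genes, and 11 of the 14 lay in the body of RUNX1 or RUNX2. Regions are numbered below in the direction of transcription, from the 5′ side of each gene.

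To show the sequence under these changes, all 7 lost regions of RUNX2 and all 4 gained regions of RUNX1 are represented by the 150 bp that held most matches to the motifs of RUNX (TGTGGTT, the extended form of the RUNX core), TEAD (CATTCC), AP-1 (TGANTCA) or ATF4 with C/EBP (TGATGCAA) on either strand. Sequences are those of the plus strand of hg38, 5′ to 3′, and capitals mark the matches. The lost regions of RUNX2, in the order in which they lie in the gene, were as follows.
RUNX2-1, chr6:45520458-45520607: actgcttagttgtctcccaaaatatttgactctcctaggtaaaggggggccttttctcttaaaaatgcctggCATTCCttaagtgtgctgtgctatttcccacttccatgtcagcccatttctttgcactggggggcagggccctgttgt
RUNX2-2, chr6:45607981-45608130: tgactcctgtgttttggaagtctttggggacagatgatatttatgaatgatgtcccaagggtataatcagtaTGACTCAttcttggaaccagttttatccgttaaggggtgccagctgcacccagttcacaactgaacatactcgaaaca
RUNX2-3, chr6:45619487-45619636: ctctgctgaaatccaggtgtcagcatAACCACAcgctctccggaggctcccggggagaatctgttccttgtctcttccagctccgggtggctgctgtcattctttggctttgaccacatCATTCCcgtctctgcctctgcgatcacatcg
RUNX2-4, chr6:45625473-45625622: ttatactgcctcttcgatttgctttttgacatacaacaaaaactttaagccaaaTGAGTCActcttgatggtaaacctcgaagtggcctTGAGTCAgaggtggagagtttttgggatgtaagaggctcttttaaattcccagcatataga
RUNX2-5, chr6:45651135-45651284: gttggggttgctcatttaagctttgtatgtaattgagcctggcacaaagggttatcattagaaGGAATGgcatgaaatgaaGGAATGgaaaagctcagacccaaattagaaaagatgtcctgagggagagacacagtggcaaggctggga
RUNX2-6, chr6:45653509-45653658: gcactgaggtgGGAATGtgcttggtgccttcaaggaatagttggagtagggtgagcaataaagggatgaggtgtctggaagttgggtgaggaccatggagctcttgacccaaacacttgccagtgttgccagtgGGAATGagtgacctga
RUNX2-7, chr6:45655961-45656110: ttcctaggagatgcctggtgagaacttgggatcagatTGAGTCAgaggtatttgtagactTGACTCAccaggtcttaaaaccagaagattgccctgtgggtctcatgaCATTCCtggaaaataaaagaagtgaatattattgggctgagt
The windows of RUNX2-5 and RUNX2-6 each held 2 TEAD matches, and that of RUNX2-4 held 2 AP-1 matches. The window of RUNX2-7 held 2 AP-1 matches and 1 TEAD match, and that of RUNX2-3 an extended RUNX match beside a TEAD match. Those of RUNX2-1 and RUNX2-2 held 1 TEAD match and 1 AP-1 match. The gained regions of RUNX1 were as follows.
RUNX1-2, chr21:35217777-35217926: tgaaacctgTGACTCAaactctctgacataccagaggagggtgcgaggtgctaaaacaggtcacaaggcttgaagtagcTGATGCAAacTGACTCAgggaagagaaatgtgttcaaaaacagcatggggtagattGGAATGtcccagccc
RUNX1-3, chr21:34965832-34965981: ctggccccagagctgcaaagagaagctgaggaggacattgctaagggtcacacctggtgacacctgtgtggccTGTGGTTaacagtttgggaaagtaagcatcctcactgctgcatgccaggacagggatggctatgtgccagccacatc
RUNX1-4, chr21:34813689-34813838: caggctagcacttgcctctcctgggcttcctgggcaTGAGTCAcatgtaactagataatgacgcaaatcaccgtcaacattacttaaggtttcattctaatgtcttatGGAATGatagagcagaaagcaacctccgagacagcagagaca
RUNX1-5, chr21:34807626-34807775: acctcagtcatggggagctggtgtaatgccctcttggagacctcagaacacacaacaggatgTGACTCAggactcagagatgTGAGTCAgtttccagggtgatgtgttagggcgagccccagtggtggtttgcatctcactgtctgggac
The window of RUNX1-2 held the most, with 2 AP-1 matches, 1 TEAD match and 1 match to the ATF4 with C/EBP composite. That of RUNX1-5 held 2 AP-1 matches and that of RUNX1-4 an AP-1 and a TEAD match, whereas RUNX1-3 held only an extended RUNX match. A match is a run of letters in the reference genome, and no binding was measured.

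RUNX2 (ENSG00000124813.23) lies on the plus strand at chr6:45328157-45664349, a body of 336.2 kb. Its 7 lost regions covered 14.0 kb, or 4.17% of the body. RUNX2-1 (chr6:45519980-45521322, 1343 bp) was the one that lay within the MANE Select transcript. It fell in intron 7 of the 9-exon transcript, 192 kb downstream of P1 and 98.2 kb downstream of P2, and 7.57 kb from the nearer exon. Of the 12 annotated transcripts, 10 span it. The other 6 lay past the 3′ end of the MANE Select transcript at position 45551082, by 57.6 to 105 kb, and fell within RUNX2 because of 2 long transcripts, RUNX2-209, which is protein-coding, and RUNX2-206, which is a nonsense-mediated decay transcript. All 6 were inside the last long intron of those transcripts, an intron of 151 kb in RUNX2-209. Whether the 6 regions act on RUNX2 was not measured.

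The 6 regions past the MANE Select 3′ end formed a cluster. RUNX2-2 (chr6:45607213-45610246) was the widest of all regions at these genes, with 3034 bp, wider than 96.2% of all lost regions. RUNX2-3 (chr6:45619441-45620931, 1491 bp) followed at 292 kb from P1 and RUNX2-4 (chr6:45625214-45627356, 2143 bp) at 298 kb. RUNX2-5, RUNX2-6 and RUNX2-7 were 3 abutting regions of 2000 bp each from 45650702 to 45656701, at 323 to 327 kb from P1. The authors' procedure divides wide peaks into bins, and with abutting regions joined the gene held 5 lost blocks. A further lost region of 2033 bp (chr6:45698330-45700362) lay 34.0 kb past the annotated end of the gene, outside the window used here and in no annotated gene. With it, the run of lost regions with neighbouring centres within 50 kb counted 7 and spanned 93.2 kb. A run holds regions of 1 direction only, by definition. From RUNX2-1 to RUNX2-7, the nearest gained region to each was 469 to 604 kb away. RUNX2 thus had all of its listed regions in the 3′ part of the gene and beyond, and none from P1 to 192 kb downstream.

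**Figure D1:**
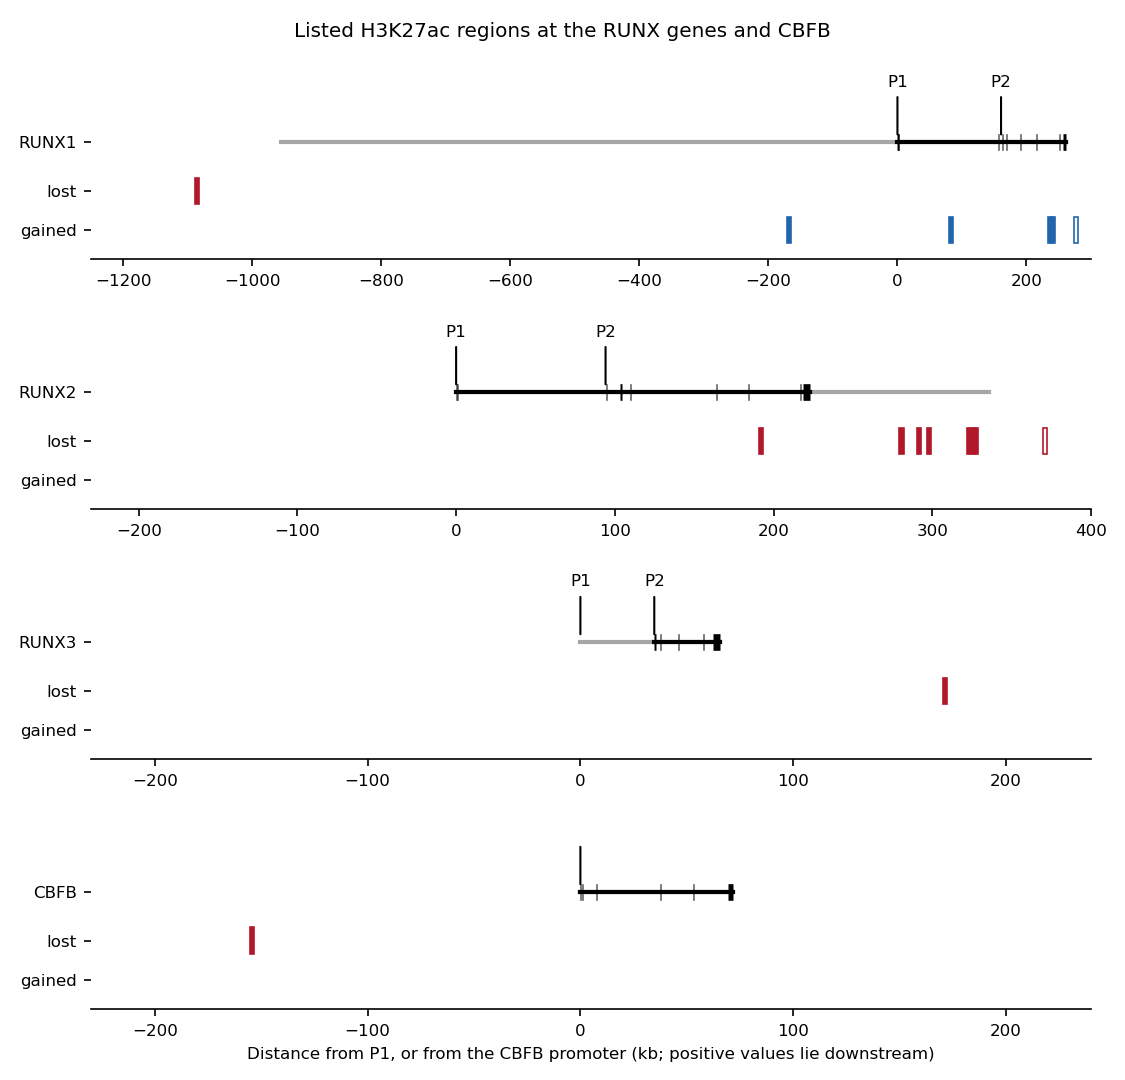
Position of the listed regions at RUNX1, RUNX2, RUNX3 and CBFB, as distance in kb from P1, or from the single promoter of CBFB, with positive values downstream. Black lines are the MANE Select transcript with its exons as bars, grey lines the rest of the annotated gene, red boxes lost regions, blue boxes gained regions, and open boxes regions outside the window; narrow regions are drawn wider than scale. The 7 lost regions of RUNX2 begin 192 kb past P1, and no box stands at P1 or P2 of any gene.

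RUNX1 (ENSG00000159216.19) lies on the minus strand at chr21:34787801-36004667 and spans 1217 kb as annotated, because of 1 long transcript, RUNX1-214, that starts far upstream. The MANE Select transcript spans 262 kb and starts at P1. The gained regions covered 7.73 kb, or 0.635% of the annotated body. RUNX1-2 (chr21:35216952-35218712, 1761 bp) lay 169 kb upstream of P1 and in the body only of RUNX1-214, which is 1 of 18 transcripts. RUNX1-3 (chr21:34965258-34965981, 724 bp) lay between the promoters, 83.7 kb downstream of P1 and 76.9 kb upstream of P2, in intron 2 of the MANE Select transcript. It was the narrowest region at these genes. RUNX1-4 (chr21:34812316-34814739, 2424 bp) and RUNX1-5 (chr21:34807048-34809865, 2818 bp) both fell in intron 7, the last but one of the transcript's introns, at 75.2 and 80.2 kb past P2. Their centres were 5.07 kb apart, and RUNX1-5 was wider than 94.0% of all gained regions. A further gained region of 467 bp (chr21:34771755-34772221), in the long noncoding RNA gene LINC01426, lay 15.6 kb past the 3′ end of RUNX1 and made a run of 3 over 43.0 kb with them.

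The lost region of RUNX1 was of another kind. RUNX1-1 (chr21:36134443-36136886, 2444 bp) was 1090 kb upstream of P1 and counted for RUNX1 only because the annotated 5′ end of RUNX1-214 is 131 kb away. It covered the start of CBR3, which encodes a carbonyl reductase, and an exon of the antisense gene CBR3-AS1. Its GC content of 58.1% and its CpG observed/expected ratio of 0.707 were the highest of the 14 regions, and the ratio was above that of 95.3% of lost regions. The nearest gained region to it was 918 kb away. Measured from P1, the nearest lost region was on the other side, 847 kb downstream. With the gene taken to begin at its 5′-most transcript in the CCDS set of curated coding regions, or as the MANE Select transcript, RUNX1 had 0 lost regions and 4 gained regions.

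**Figure D2:**
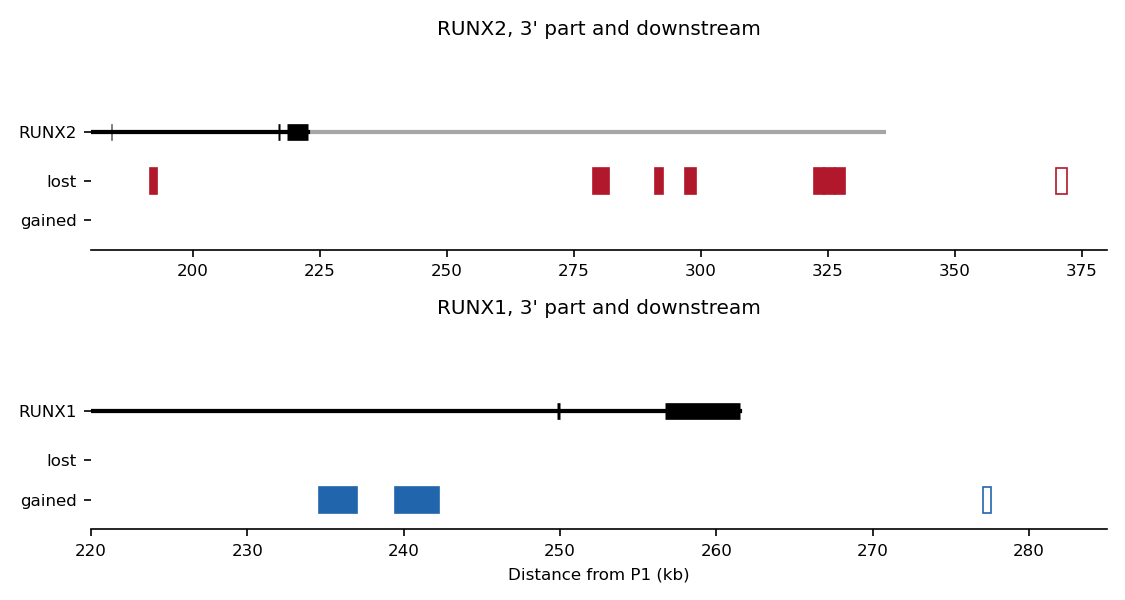
The 3′ part of RUNX2 and of RUNX1 with the sequence downstream, on the axis of distance from P1 in kb. Black is the MANE Select transcript with exons as bars, grey the extension in longer RUNX2 transcripts, red lost, blue gained, and open boxes lie outside the window used for counting. The lost regions of RUNX2 lie mostly past the last exon of the black transcript, whereas the 2 gained regions of RUNX1 shown in filled blue lie before its last 2 exons.

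RUNX3 (ENSG00000020633.19; chr1:24899511-24965121, minus strand, 65.61 kb) had 0 listed regions in its body. Its 1 lost region, RUNX3-1 (chr1:24792956-24794345, 1390 bp), lay 171 kb downstream of P1 and 106 kb past the 3′ end of the gene. It touched an exon of CLIC4, which encodes a chloride intracellular channel protein, and lay 47.6 kb from the start of that gene. It had the lowest GC content of the 14 regions, 36.1%, and 4.16% of lost regions had a lower one. CBFB (ENSG00000067955.15; chr16:67028984-67101058, plus strand, 72.08 kb) also had 0 listed regions in its body. CBFB-1 (chr16:66874043-66875480, 1438 bp) lay 154 kb upstream of its promoter and 0.787 kb from the start of NAE1, a subunit of the enzyme that activates NEDD8. Both regions were thus placed at these genes by distance alone, and both drop out when the window is cut to 100 kb.

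The promoters were examined next, because the use of P1 or P2 decides which RUNX isoform is made. P1 and P2 are 161 kb apart in RUNX1, 94.2 kb in RUNX2 and 34.7 kb in RUNX3. None of the 6 RUNX promoters, nor that of CBFB, had a listed region within 2.5 kb or within 10 kb. The same held for the other annotated starts, since none of the 16 distinct transcript starts of RUNX1, 11 of RUNX2, 4 of RUNX3 and 12 of CBFB had a region within 2.5 kb. Over all protein-coding genes, 1.96% had a lost region within 2.5 kb of the 5′ end and 6.39% a gained one, so that 0 of 4 is near the background. For 10 kb no share over all genes was counted. The distances that follow in this paragraph run from the promoter to the nearer edge of a region. Distances of the numbered regions from the promoters, given above, were taken from their centres. P2 of RUNX1 was the closest to any listed region, with a gained region at 74.0 kb. P1 of RUNX1 had its nearest gained region at 83.3 kb, and both lay downstream of their promoter. P1 and P2 of RUNX2 had a lost region at 192 and 97.5 kb downstream, and the nearest gained regions at 276 and 371 kb upstream. For RUNX3, the nearest lost region was 171 kb downstream of P1 and 136 kb downstream of P2, and the nearest gained regions were 267 kb upstream of P1 and 286 kb downstream of P2. For CBFB these distances were 154 kb upstream and 994 kb downstream.

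How often other genes carried such regions was counted by the same rule. Of all protein-coding genes, 34.8% had at least 1 lost region and 46.1% at least 1 gained region in the body or within 200 kb of the 5′ end, against 4 of 4 and 1 of 4 here. Among genes of 50 kb or longer, as all 4 are, the shares were 31.6% and 41.7%. Genes with lost and no gained regions made up 16.7% of all genes, and RUNX2, RUNX3 and CBFB were among them. In the gene body alone, 6.61% of genes had a lost region and 10.9% a gained one, and 1 of the 4 genes did in each case. With 4 genes, and with RUNX3 and CBFB each resting on 1 region more than 100 kb from its promoters, these counts are read as a description.

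RUNX2 stood high in the order of genes by lost regions in the body. With 7, it was among 21 genes, or 0.105% of all, that had at least that many, and 15 genes had more. That place rests on the long transcripts, since with the gene as its MANE Select transcript the count was 1, and it was 5 with abutting regions joined. Long genes have more room for regions. Of the 693 genes at least as long as RUNX2, itself included, 155 had a lost region in the body and 10 had 7 or more. Its density was 2.08 lost regions per 100 kb. CAMTA1, a gene of 984 kb for a calmodulin-binding transcription activator, was the other gene with exactly 7 lost and 0 gained regions in the body. RUNX1 was 1 of 88 genes, or 0.439% of all, with at least 4 gained regions in the body, and 50 genes had more. Only 41 protein-coding genes are longer as annotated, and its density was 0.329 gained regions per 100 kb. Of the 42 genes at least as long as RUNX1, itself included, 7 had a gained region in the body, and RUNX1 was the 1 with 4 or more. These places and the density of RUNX1 also rest on a long transcript, 1 of its 18. The MANE Select transcript of RUNX1 spans 262 kb in place of 1217 kb, and RUNX1-2 lies upstream of it. A further 27 genes shared the counts of RUNX1, 0 lost and 4 gained regions in the body as annotated. Regions of a single direction were common in such genes, since 123 of the 193 genes with at least 4 listed regions in the body, or 63.7%, had them all in 1 direction. RUNX3 and CBFB shared their 0 and 0 with 16740 other genes.

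**Figure D3:**
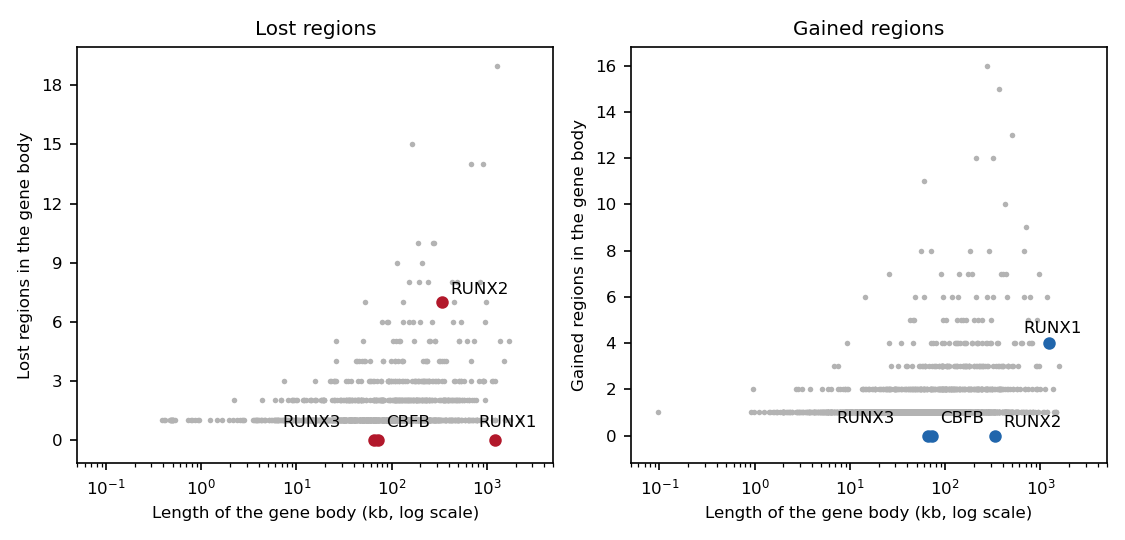
Lost (left) and gained (right) regions in the gene body against the length of the body in kb, on a log scale. Grey points are the protein-coding genes with at least 1 such region and coloured points the 4 genes named. RUNX2 stands at 7 lost and 0 gained, RUNX1 at 0 lost and 4 gained, and RUNX3 and CBFB at 0 in both panels.

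Size and base composition were set beside those of each whole list. The median width was 2000 bp in the 10 lost regions and 1905 bp in all lost regions, and 2092 bp in the 4 gained regions and 1697 bp in all gained regions. The median GC content was 46.1% against 46.8% in lost regions and 44.8% against 46.1% in gained regions. Among the lost regions of RUNX2, GC content ranged from 42.3% to 48.0%. Their CpG observed/expected ratio was between 0.0825 and 0.209, with a median of 0.170 beside 0.202 in all lost regions. RUNX2-7 and RUNX2-6 had the lowest ratios of the 14 regions, and all 7 were below the 0.707 of the region over the start of CBR3. In the gained regions of RUNX1 the ratio ran from 0.0969 to 0.225, and its median was 0.214 beside 0.247 in all gained regions.

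Motif matches were counted because the RUNX proteins act with other factors at enhancers. Matches were sought on both strands, and the extended RUNX motif holds the core within it. TEAD factors, the DNA-binding partners of YAP and TAZ, had the motif CATTCC in all 10 lost regions, with 16 matches in the 7 regions of RUNX2. Over all lost regions 73.5% had a match. Wider regions hold more letters, and in RUNX2 there were 1.14 matches per kb against 0.862 in all lost regions. In the central 1000 bp the motif was present in 7 of the 10, or 70.0%, against 61.2% of the lost regions wide enough. RUNX2-5 and RUNX2-6 had 4 TEAD matches each, the most among the lost regions here. In the gained regions of RUNX1 the motif was in 3 of 4, against 58.8% of all gained regions, and 5 of its 8 matches were in RUNX1-4. There were 1.04 matches per kb there against 0.625 in all gained regions, so that a density above that of the whole list was not particular to the lost regions. The central 1000 bp held the motif in 2 of the 3 gained regions wide enough, against 46.4% of all such gained regions.

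The RUNX core TGTGGT itself was present in 7 of 10 lost regions, against 68.1% of all, and in 3 of 4 gained regions, against 60.0% of all. RUNX2-3 held 4 core matches and RUNX2-6 held 3, whereas RUNX2-5 and RUNX2-7 held 0. The extended form TGTGGTT was found 2 times in RUNX2-3 and 1 time in RUNX1-3 and in no other of the 14 regions, while 30.9% of all lost and 26.0% of all gained regions had it. A match to the RUNX motif in RUNX2 or RUNX1 is no measurement of autoregulation.

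AP-1, the FOS and JUN dimers, had its motif TGANTCA in 6 of 10 lost regions, against 56.5% of all. RUNX2-4 held 4 matches and RUNX2-7 held 3, and 3 more were in RUNX3-1. Of the gained regions of RUNX1, 3 of 4 had it, against 53.6% of all, with 4 matches in RUNX1-5. Matches per kb were 0.726 in the lost regions against 0.512 in all lost, and 1.04 in the gained regions against 0.576 in all gained. In the central 1000 bp the motif was in 3 of the 10 lost regions, or 30%, against 45.6% of the lost regions wide enough. Of the gained regions wide enough, 3 of 3 had it there, against 46.9%. The composite of ATF4 with C/EBP, TGATGCAA, was found only in RUNX1-2, which held 2 matches, and 10.1% of all gained and 4.36% of all lost regions had it. The CArG box of the serum response factor SRF was matched 1 time, in RUNX2-3, whereas 14.7% of all lost and 7.76% of all gained regions had it. The regions are few and some abut each other, so that these counts are a description beside the shares of each list.

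**Figure D4:**
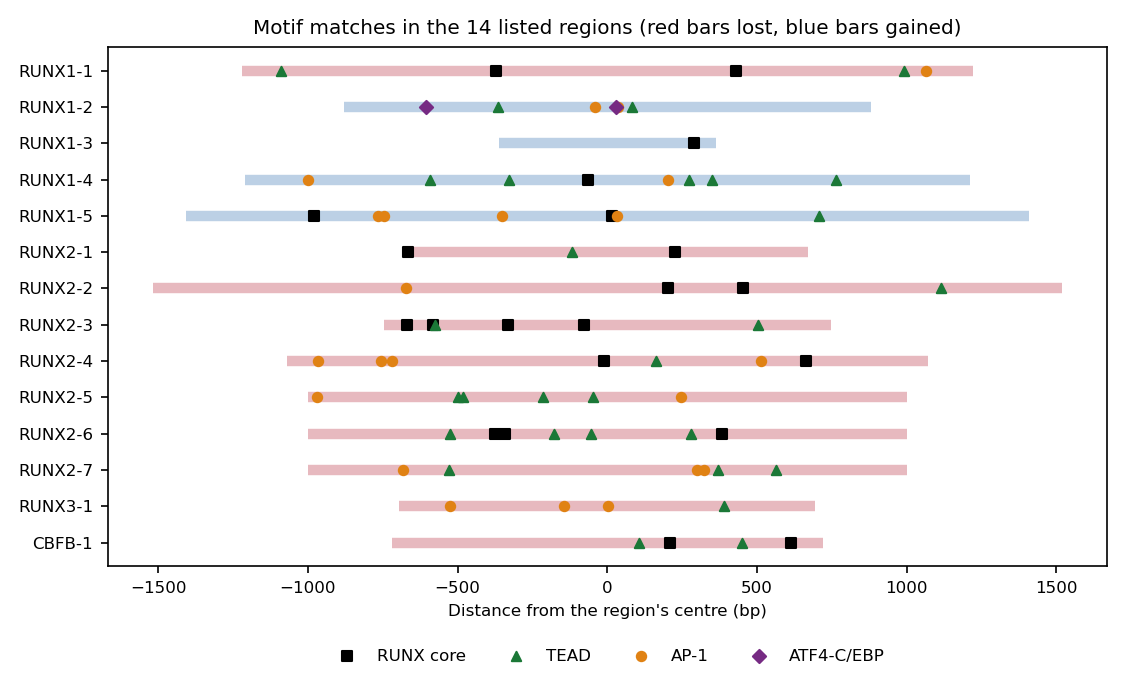
Motif matches along the 14 regions, as distance in bp from the centre of each region. Red bars are lost and blue bars gained regions, drawn to their width, and symbols mark matches of the RUNX core, TEAD, AP-1 and the ATF4 with C/EBP composite. TEAD matches stand in all 10 red bars, and the 2 matches of the composite are in RUNX1-2.

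RUNX proteins work with coactivators, corepressors and modifying enzymes, and 30 of these partners and regulators were followed by the same rule. At least 1 lost region was present at 8 of the 30 (26.7%) and at least 1 gained region at 14 (46.7%), with 4 genes holding both kinds and 12 holding none. The shares over all genes were 34.8% and 46.1%, and the median number per gene was 0 in both directions, in the list as over all genes. In the gene body alone, 4 of the 30 had a lost region and 9 a gained one, beside 6.61% and 10.9% of all genes. Gene length was not matched in this comparison. SMAD3, which carries TGF-β signals, had the most lost regions, with 9, of which 7 were in the body, beside 1 gained region. WWTR1, the gene of TAZ, had 3 lost and 3 gained regions. ETS1, an ETS family factor that binds DNA together with RUNX1, had 2 lost and 4 gained regions. RUNX1T1, a corepressor gene known from its fusion with RUNX1, and PIM1, a kinase gene, had 2 lost and 0 gained regions each.

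Gained regions led at the ubiquitin ligase gene NEDD4, with 5 and 0 lost, followed by the kinase gene HIPK2 and the ubiquitin ligase gene STUB1, with 4 and 0 lost each. HIPK2 had all 4 in its body, whereas STUB1, a gene of 2.65 kb, had 0 in its body and 0 within 2.5 kb of its 5′ end. YAP1, which encodes YAP, the paralogue of TAZ, had 3 gained and 0 lost regions, all 3 in the gene body. Of the 30 partners, 4 had a gained region within 2.5 kb of the 5′ end, namely YAP1, NEDD4, KAT6A and HIPK2, and 0 had a lost one there, beside 6.39% and 1.96% of all genes. The corepressors TLE1, TLE3 and TLE4 and the acetyltransferase gene CREBBP were among the 12 partners with 0 regions of either kind. TLE2 and TLE5, of the same family as the 3 corepressors, had 1 gained and 0 lost regions each, outside the gene body. EP300, which encodes an acetyltransferase that deposits H3K27ac, had 2 gained regions and 0 in its body.

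Of 15 genes known as RUNX targets in bone, cartilage, blood or mesenchyme, 5 (33.3%) had a lost region and 9 (60.0%) a gained region, 3 of them both, and 4 had neither. Over all genes the shares were 34.8% and 46.1%. The median gene had 0 lost regions and 1 gained region, against 0 and 0 over all genes. TNFRSF11B, the gene of osteoprotegerin, had 6 lost and 0 gained regions, and none lay in its body. CSF1R, the receptor gene for macrophage colony-stimulating factor, had 5 lost regions, 1 of them in the body, and 1 gained region. PTH1R, the parathyroid hormone receptor gene, had 4 lost regions, of which 3 were in the body and 2 within 2.5 kb of its 5′ end, and 1 gained region. ALPL, the gene of the mineralising alkaline phosphatase, had 2 lost regions. Gained regions were most frequent near SPP1, the osteopontin gene, and CD36, a scavenger receptor gene, with 3 each, and CD36 also had 1 lost region. BGLAP, the osteocalcin gene, and ITGAL, an integrin gene, had 2 gained regions each. MMP13, SP7, CSF1R, CDKN1A and PTH1R had 1 each. In the gene body, 3 of the 15 targets had a lost region, beside 6.61% of all genes. Only 1 target had a gained region in its body, beside 10.9% of all genes. A window of 200 kb holds neighbouring genes too, so the counts do not show which gene a region serves. Expression of the RUNX genes, their partners or their targets was not measured in these files.

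**Figure D5:**
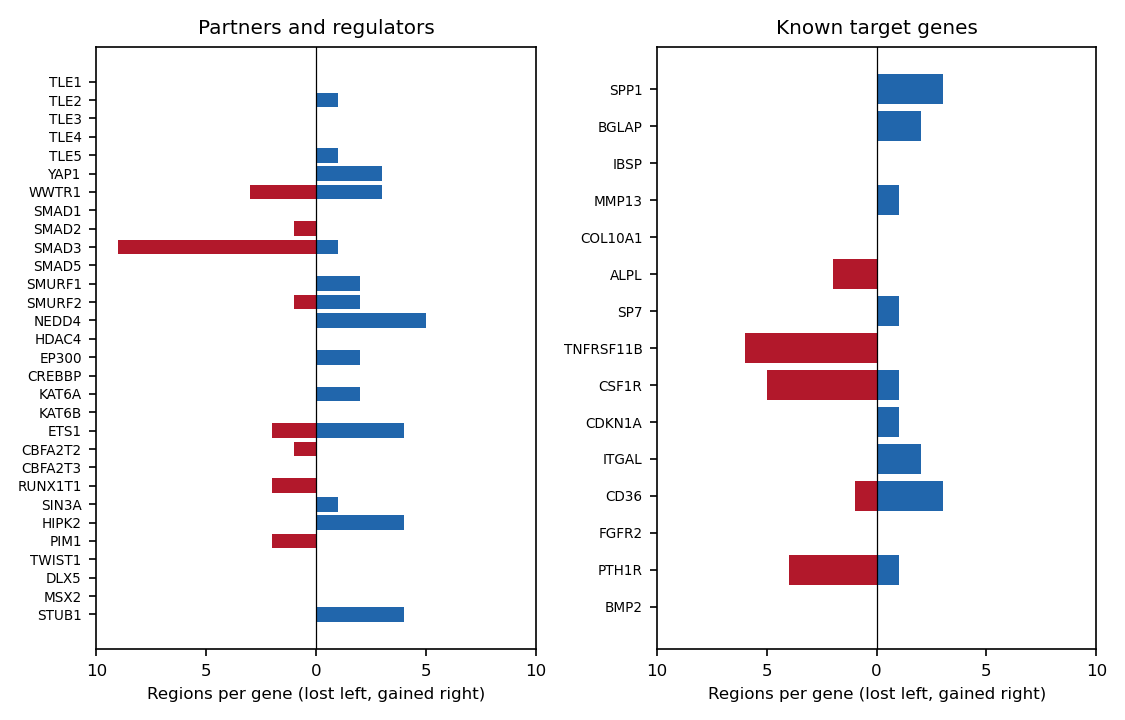
Number of lost (red, left of 0) and gained (blue, right of 0) regions at 30 partners and regulators of RUNX proteins and at 15 known target genes, in the body or within 200 kb of the 5′ end. SMAD3 has the longest red bar, with 9, and NEDD4 the longest blue bar, with 5; genes without a bar have 0 of both.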

How the data were processed

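The authors' methods state that H3K27ac ChIP-seq reads were aligned to hg38 with Chromap, peaks called per library against input with MACS2, divided into bins, and all 8 libraries tested together with MAnorm2. The deposited lists, 1 of lost and 1 of gained regions, have 3 columns each, positions in base pairs, with no signal and no depth. The adjusted p is 0.15 in their names and 0.05 in the methods. The labels call the 4 libraries of each arm biological replicates. Starts were converted to count from 1, and regions were set against GENCODE release 44 on hg38 in python 3.11.15 with pysam 0.24.0. P1 and P2 are the starts of complete coding transcripts, grouped by start codon. Motifs were matched as letters on both strands. Of the listed regions, 11 lie on the mitochondrial or unplaced sequences. Counting was checked on constructed cases. All 4 members, all regions at them and the 5 genes per list and direction with most regions were named. The members, motifs and gene lists were chosen with earlier results of these data known.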

Additional observations from a re-analysis of the deposited data

How the results depend on the processing

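Of 60 alternative counts, 44 stayed within 1.5 times the reported count and 16 did not. The 44 include gained counts at RUNX2, RUNX3 and CBFB that were 0 in both settings, so the tally is no measure of stability. With 100 kb in place of 200 kb, or the gene body alone, the lost regions of RUNX1, RUNX3 and CBFB went from 1 each to 0. With 500 kb, lost regions numbered 3 at RUNX1, 3 at RUNX3 and 8 at CBFB, and gained regions 2 at RUNX2 and 3 at RUNX3. With RUNX1 begun at its 5′-most CCDS transcript it had 0 lost regions. With each gene as its MANE Select transcript, an alternative chosen after seeing the data, RUNX1 had 0 lost regions and RUNX2 had 1 in place of 7; the 4 gained regions of RUNX1 stood in every alternative. In the body alone the share of protein-coding genes with a lost region was 6.61% in place of 34.8%, and with a gained region 10.9% in place of 46.1%. Region centres in place of any overlap, abutting regions joined, and genes of 50 kb or longer moved no count past 1.5 times. No paired analysis was possible because neither list gives a value per replicate, and for the same reason no replicate could be left out. A stricter threshold was not run, since the lists hold no p-value per region. Read depth is unknown.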

Other observations

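The 3 RUNX genes lie beside members of the CLIC and RCAN gene families, and these neighbours, chosen after the positions of the regions were seen, differed between the loci. CLIC4, near RUNX3, and CLIC5, near RUNX2, had 1 lost and 0 gained regions each in the body, whereas CLIC6, near RUNX1, had 0 of both. The lost region in CLIC4 is RUNX3-1 itself, already counted for RUNX3. Over all protein-coding genes, 6.61% had a lost region in the body and 10.9% a gained one. RCAN1, near RUNX1, had 2 gained and 0 lost regions in the body, and RCAN2 and RCAN3 had 0. RCAN genes encode regulators of the phosphatase calcineurin. SUPT3H, whose body overlaps the 5′ part of RUNX2 on the opposite strand, had 2 abutting gained regions (chr6:45049486-45050631 and chr6:45050632-45051887) in its body. Their centres lay 278 and 277 kb upstream of P1 of RUNX2.

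Between 200 and 500 kb from the 5′ end of CBFB, 7 further lost and 0 gained regions were listed, in or at CMTM3, CMTM4, FHOD1 with SLC9A5, and PLEKHG4. Those at FHOD1 with SLC9A5 abutted each other, as did those at PLEKHG4. The share of all genes with regions in so wide a window was not counted. FHOD1 encodes a formin that acts on actin filaments. At RUNX1 the 2 further lost regions in that range abutted each other in DOP1B, and at RUNX3 there were 2 lost and 3 gained ones, the latter in SRRM1, SYF2 and TMEM50A.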
